A study of Mus musculus with 24 samples.

Results

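The genes for the proteins of the cytosolic ribosome were followed through 24 bulk RNA sequencing libraries of mouse mammary tumours. They were chosen by symbol from the authors' deposited comparison table: Rpl or Rps followed by digits, with an optional letter, l or x at the end, or Rplp0, Rplp1, Rplp2 or Rpsa. Kinases of the Rps6k group and pseudogenes named as such were left out. The rule found 76 of the 14019 genes in that table, 31 of the small and 45 of the large ribosomal subunit, and it used no measured difference. The table leaves out genes with few reads, and all 76 genes also passed the filter on low counts used here, which kept 15820 genes.

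The tumours came from MMTV-PyMT mice, in which the promoter of the mouse mammary tumour virus drives the polyoma middle T oncogene, mainly in mammary epithelium. The labels give 12 tumours as WT (NR0B2+/+ PyMT+) and 12 as KO (NR0B2-/- PyMT+) for Nr0b2, the gene of the orphan nuclear receptor SHP. All 24 tumours therefore carried the oncogene, and each was taken when it had grown to 2000 mm3. No age is given. The labels do not say if tumours came from different animals, and p-values then measure only the spread between these samples, which may be technical.

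Nr0b2 itself went against the labels: all 12 libraries labelled KO held reads of it, 3 to 71 each and 182 together, and 1 of the 12 labelled WT held a single read. Counts per gene cannot tell exons kept in a targeted allele from the rest, and every group name below is therefore that of the label. All 7 epithelial keratin, cadherin and Epcam markers had reads in every library, with a summed level of 3364 to 8407 CPM (counts per 1000000 reads of the scaled library size). Library totals ran from 18789250 to 38022182 counted reads. The lowest count of a ribosomal protein gene in any library was 1263 reads, apart from Rps4l. These are whole tumours, in which fewer cells of a type and less RNA per cell cannot be told apart.

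Each ribosome holds a single copy of nearly every ribosomal protein, and cells make these proteins in matched amounts. The small subunit reads the mRNA and the large subunit joins the amino acids. In mammals most of these genes start transcription at a C inside a run of pyrimidines (C and T), the terminal oligopyrimidine tract, through which the mTOR pathway and the RNA-binding protein Larp1 control translation of the mRNA. Growth signals and Myc raise output of ribosomes, and free ribosomal proteins such as Rpl5 can bind Mdm2 and stabilise p53.

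The sequence around the start of transcription is shown for 5 genes on which later results turn, with every start that is listed for them. The lines give 40 bases before and 20 after the start in the RefSeq promoter table (build GRCm38.p6), and capitals mark runs of at least 8 bases made of both C and T. Rplp2 and Rpl15 stand near the upper and lower end of the range in library KO 12, Rps27 and Rpl34 lie on chromosome 3 and have the smallest p, and Rpl19 on chromosome 11 has a change near 0. Rpl34 and Rpl19 have 2 listed starts each.
Rplp2 (chr7:141447611-141447670, plus strand): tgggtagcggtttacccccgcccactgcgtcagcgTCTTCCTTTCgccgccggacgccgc
Rpl15 (chr14:18270967-18271026, minus strand): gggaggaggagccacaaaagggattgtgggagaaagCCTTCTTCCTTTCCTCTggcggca
Rps27 (chr3:90213629-90213688, minus strand): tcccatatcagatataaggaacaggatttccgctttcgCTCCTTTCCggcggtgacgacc
Rpl34, first start (chr3:130730379-130730438, minus strand): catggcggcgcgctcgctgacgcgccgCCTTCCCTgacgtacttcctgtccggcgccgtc
Rpl34, second start (chr3:130730318-130730377, minus strand): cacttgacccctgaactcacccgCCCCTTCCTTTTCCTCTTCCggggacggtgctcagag
Rpl19, first start (chr11:98026670-98026729, plus strand): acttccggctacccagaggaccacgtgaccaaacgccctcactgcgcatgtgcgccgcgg
Rpl19, second start (chr11:98026884-98026943, plus strand): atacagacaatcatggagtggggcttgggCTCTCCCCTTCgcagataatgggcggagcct
Of these 7 windows, 6 hold such a run, of 8 to 20 bases, and in 4 of them (Rplp2, Rpl15, Rps27 and the second start of Rpl34) it spans the first transcribed base. The first start of Rpl19 has none.

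The table held promoters for 56 of the 76 genes. Within 50 bases on either side of the start, 48 of the 56 (85.7%) held a run of at least 8 pyrimidines on the coding strand, against 38.8% of 27025 genes in the table. Over the whole 300 bases of the promoter and on both strands, CCGGAAG, the letters of an ETS factor site, stood in 23 genes (41.1%, against 9.93% of all genes). The letters GGGCGG, bound by Sp factors, stood in 36 (64.3%, against 38.2%), and the E-box CACGTG in 6 (10.7%, against 8.09%). The letters AAGATGGC of a YY1 site were found in 5 genes (8.93%, against 3.19%) and TATAA on the coding strand in 15 (26.8%, against 20.03%). These are matches of letters only, and a gene counts once if any of its listed starts holds them.

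Library KO 12 stood apart from the other 23 in these genes. The 76 genes took 10.8% of its counted reads, and between 3.51% (KO 9) and 5.81% (WT 23) of the reads in the others. The medians were 5.08% over the libraries labelled KO and 4.85% over those labelled WT, and without KO 12 the libraries labelled KO ran from 3.51% to 5.49% around a median of 5.03%. The groups overlapped, and all but KO 12 and KO 9 lay within 4.13% and 5.81%. KO 12 was the highest library for both subunits, with 4.72% of reads in small and 6.06% in large subunit genes, against at most 2.41% and 3.40% elsewhere.

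**Figure D1:**
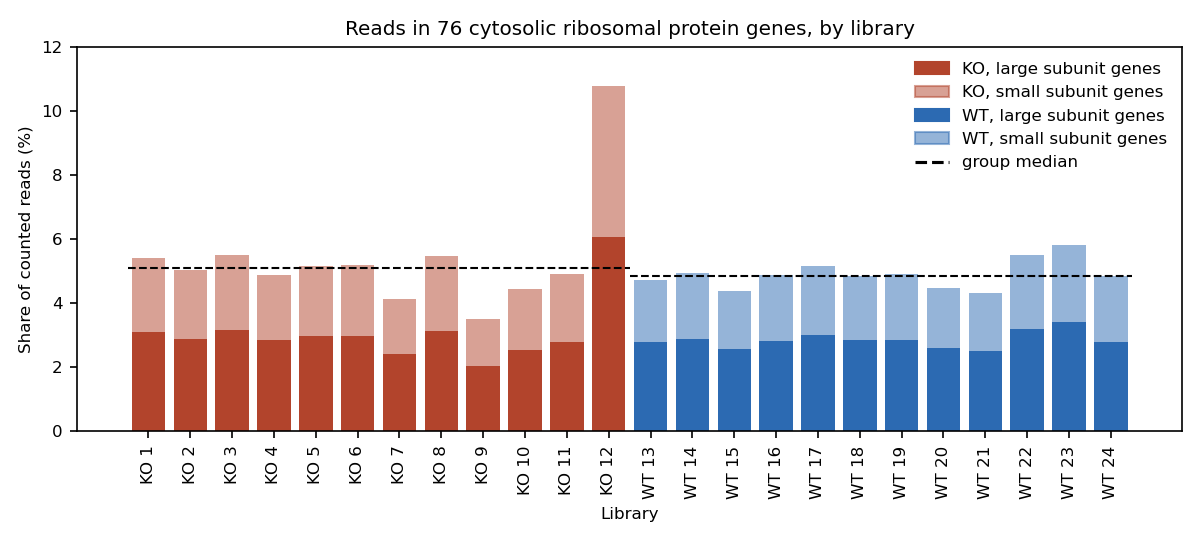
Percent of counted reads in the 76 cytosolic ribosomal protein genes in each of the 24 libraries, with large subunit genes in full colour, small subunit genes in the lighter colour above them and a dashed line at each group's median. KO 12 reaches 10.8%, KO 9 is the lowest at 3.51%, and the group medians are 5.08% (KO) and 4.85% (WT).

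Gene by gene, 75 of the 76 were highest of all 24 libraries in KO 12, against 25.4% of tested genes, and the remaining gene was Rps4l, highest in WT 16. The median gene of the family stood 1.48 above the median of the other 23 libraries on the log2 CPM scale. The difference was largest for Rpl36, at 1.90, and for Rplp2, a protein of the ribosomal stalk that recruits translation factors, at 1.86. It was smallest for Rps4l, at -0.13, and next for Rpl15, a core protein of the large subunit, at 0.82. At the other end, KO 9 was the lowest library for 59 of the 76 genes, against 7.91% of tested genes, with its median gene of the family 0.36 below that gene's own median level.

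**Figure D2:**
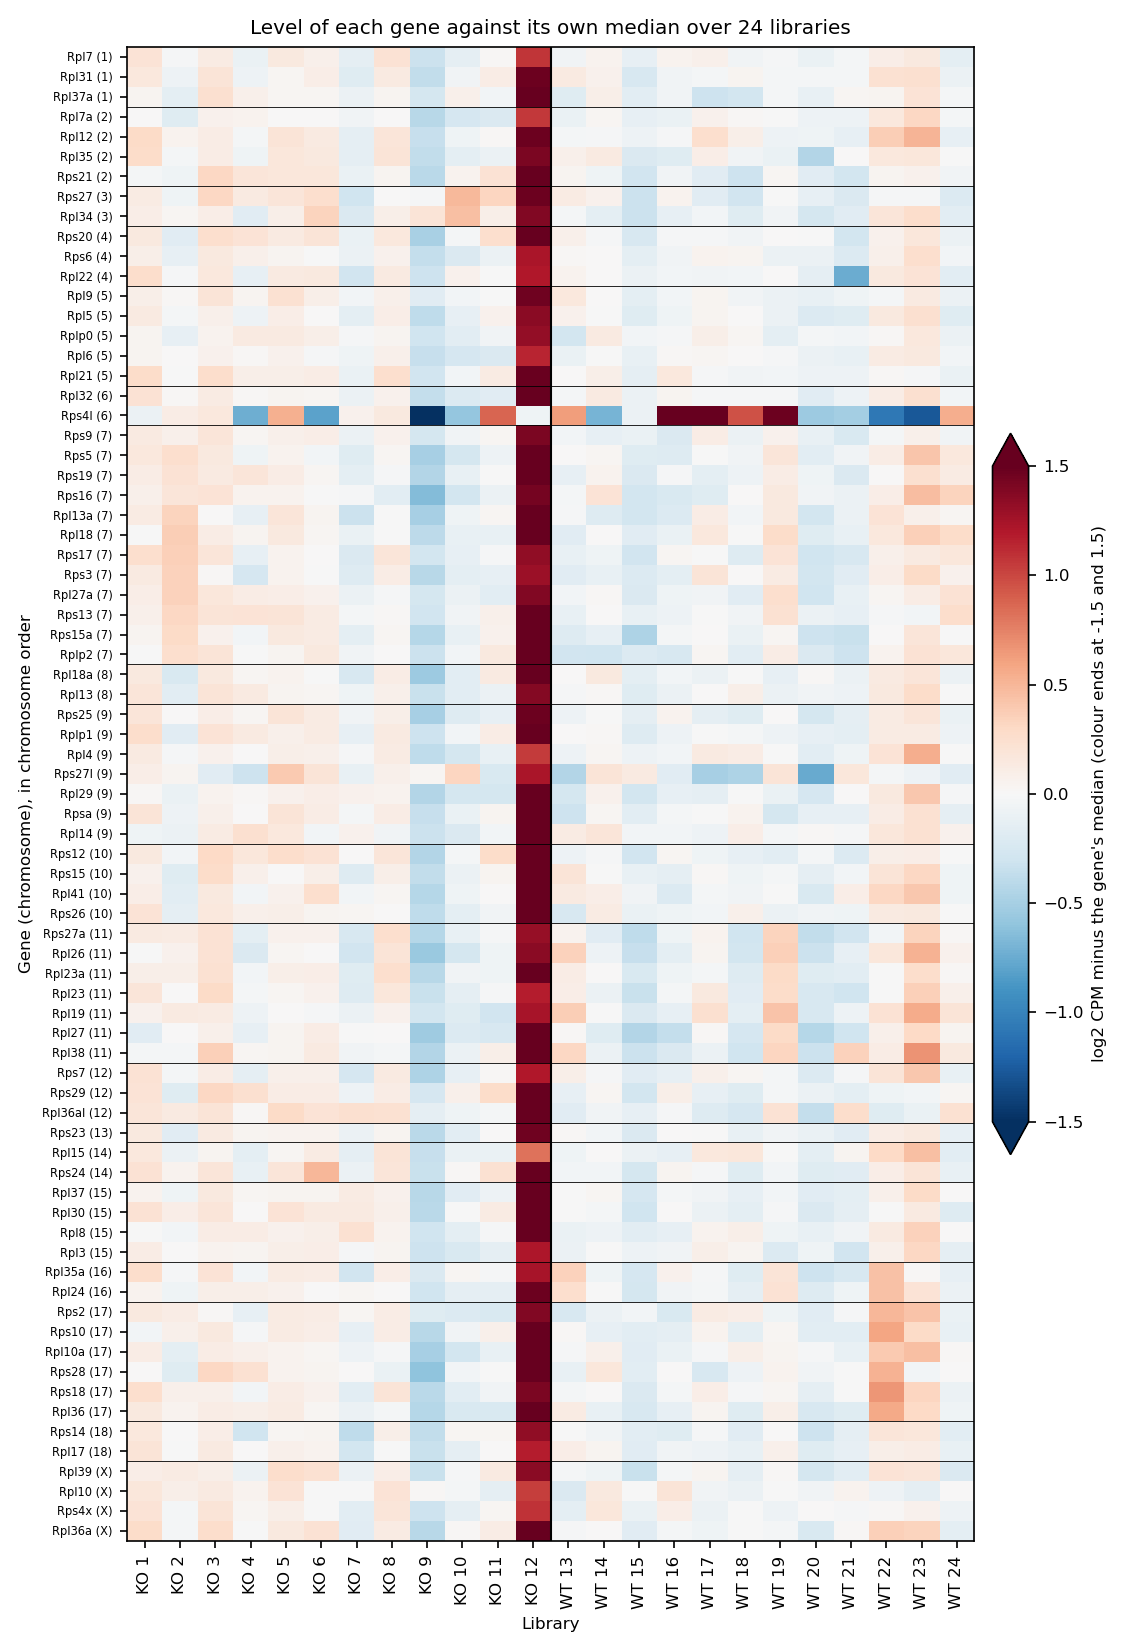
Log2 CPM of 75 of the 76 genes minus the gene's own median over the 24 libraries, with genes in chromosome order (chromosome in brackets) and KO libraries left of the line. KO 12 is the highest library for 74 of the genes drawn and KO 9 the lowest for 58, while Rps4l is not high in KO 12 and chromosomes 7, 11 and 17 show blocks in single libraries such as KO 2, WT 19 and WT 22.

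KO 12 also differed by gene length, and ribosomal protein genes are short: their exon length had a median of 827 bp, against 3643 bp over all tested genes. In KO 12 the level of other genes had a slope of -0.34 (log2) per doubling of exon length, and the slope lay between -0.04 and 0.11 in the other 23 libraries. Other genes of up to 500 bp were 1.08 higher in KO 12 than in the median of the other libraries, and the 10 ribosomal protein genes of that length 1.63 higher. From 500 to 1000 bp the values were 0.99 for other genes and 1.49 for 38 ribosomal protein genes, and from 1000 to 2000 bp 0.63 and 1.37 for 22. From 2000 to 4000 bp they were 0.15 and 1.26 for 5 genes. The single longer gene, Rps15a with 5136 bp of exons, was 1.53 higher, against -0.29 for other genes of 4000 to 8000 bp. Exon length here counts every annotated exon of a gene, and a single mRNA can be shorter. Rps15a, Rps20 (3446 bp) and Rps27l (2748 bp) may therefore stand in too long a range. The median of the ribosomal protein genes was above that of other genes in each of these ranges, while Rps4l lay below it. Other genes of at least 100 CPM, which are closer in level to the family, were 1.36 (7 genes), 1.15 (68) and 0.84 (304) higher in the 3 shortest ranges. The gap was smaller against them there. From 2000 to 4000 bp they stood at 0.26, and from 4000 to 8000 bp at -0.28, near the values of all other genes in those ranges. The part of length in their level in KO 12 was not tested beyond removing the trend in the fit given below.

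**Figure D3:**
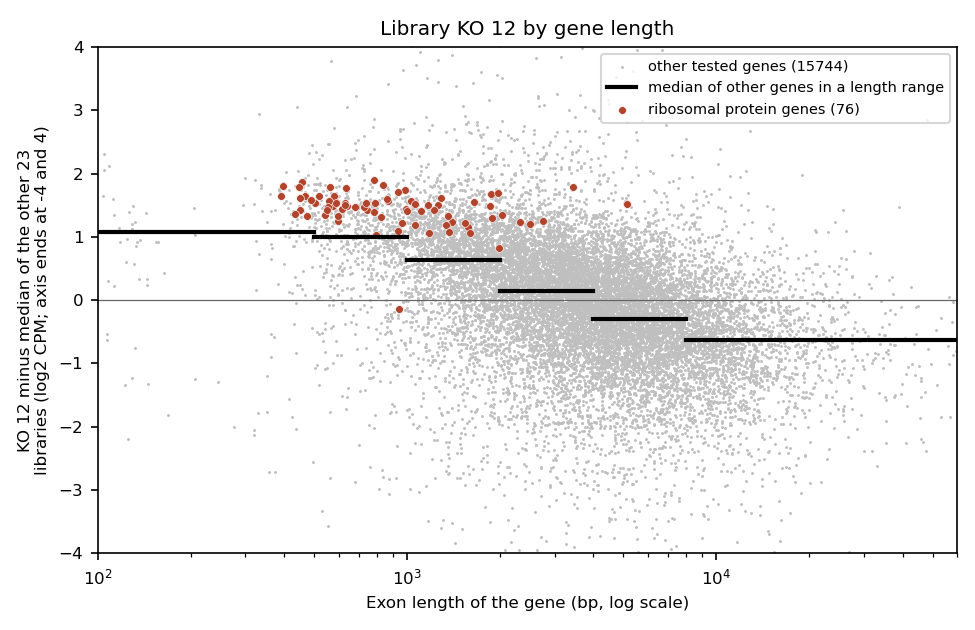
Library KO 12 minus the median of the other 23 libraries (log2 CPM) against exon length in bp on a log axis, for 15744 other tested genes (grey) and the 76 ribosomal protein genes (red), with black lines at the median of the other genes in each length range. The grey medians fall from 1.08 to -0.63 with length, and 75 of the red points lie between 0.82 and 1.90.

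KO 12 had the lowest total of all libraries, 18789250 counted reads, with KO 3 almost equal at 18799631. The scaling factor of KO 12 was also the lowest (TMM, 0.829, with 0.918 to 1.06 in the others). Its summed mammary epithelium markers were the highest of the 24 libraries at 8407 CPM, with 3364 to 6815 in the others. Its 6 fibroblast markers were the lowest at 605 CPM, with 865 to 3618 in the others, and no marker of the 8 cell type lists was at 0 in it. The part of these differences in the level of the ribosomal protein genes was not tested.

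Between the libraries labelled KO and labelled WT, edgeR's quasi-likelihood test called 0 of the 76 genes at a Benjamini-Hochberg adjusted p under 0.05, and 50 (0.316%) of the 15820 genes tested. DESeq2 called 0 of them among its 418 genes (2.64%) and limma voom 0 among its 69 (0.436%). At an unadjusted p under 0.05 in edgeR, 10 of the 76 were higher in the libraries labelled KO, against 10.01% of all tested genes, and 1 was lower, against 8.90%. The smallest adjusted p in edgeR was 0.157, for Rps27. No gene of the family had KO and WT ranges that did not overlap, which 0.0506% of tested genes had.

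The direction was nearly uniform over all libraries, and of the single libraries KO 12 moved the median change most when left out. Of the 76 log2 changes, 74 were above 0, against 51.3% of all tested genes, with a median of 0.21 against 0.01. Without KO 12, 45 were above 0, against 47.1%, with a median of 0.01 against -0.01. At an unadjusted p under 0.05, 7 genes were then higher (8.66% of all genes) and 1 lower (9.14%), and 0 passed in edgeR after adjustment (0.433%). With each library's trend of level with gene length removed, 32 changes were above 0, against 50.03%, and the median was -0.01. At an unadjusted p under 0.05, 1 gene was then higher (7.64%) and 1 lower (7.79%). The higher gene was Rps15a, whose annotated exons are long, and the lower gene Rps4l. In edgeR, 0 passed after adjustment (0.247%). Without KO 9, the library with the lowest levels, 18 genes were higher at an unadjusted p under 0.05 (10.1% of all genes), and without KO 9 and KO 10 together, a setting added after the data were seen, there were 22 (10.03%). In both, 0 passed in edgeR after adjustment (0.263% and 0.0868%). Settings without KO 12 gave opposite directions, but 1 of them leaves out libraries with low levels. KO 9 and KO 10 had the lowest family medians of the libraries labelled KO, -0.36 and -0.12 (log2) against the genes' own medians. Leaving both out moves the changes up by that choice. Without KO 9, KO 10 and KO 12, 62 of the 76 changes were above 0 (46.3% of all genes), with 14 higher (7.76%) and 0 lower (7.82%) at an unadjusted p under 0.05. With the length trend removed and KO 12 left out, 62 were below 0 and 14 above (45.2% of all genes above), with 0 higher (6.89%) and 8 lower (8.41%). Both settings were added after the data were seen, and edgeR called 0 of the 76 in each after adjustment (0.252% and 0.182%). The median change was 0.24 for small and 0.19 for large subunit genes, and 0.03 and 0.01 without KO 12.

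**Figure D4:**
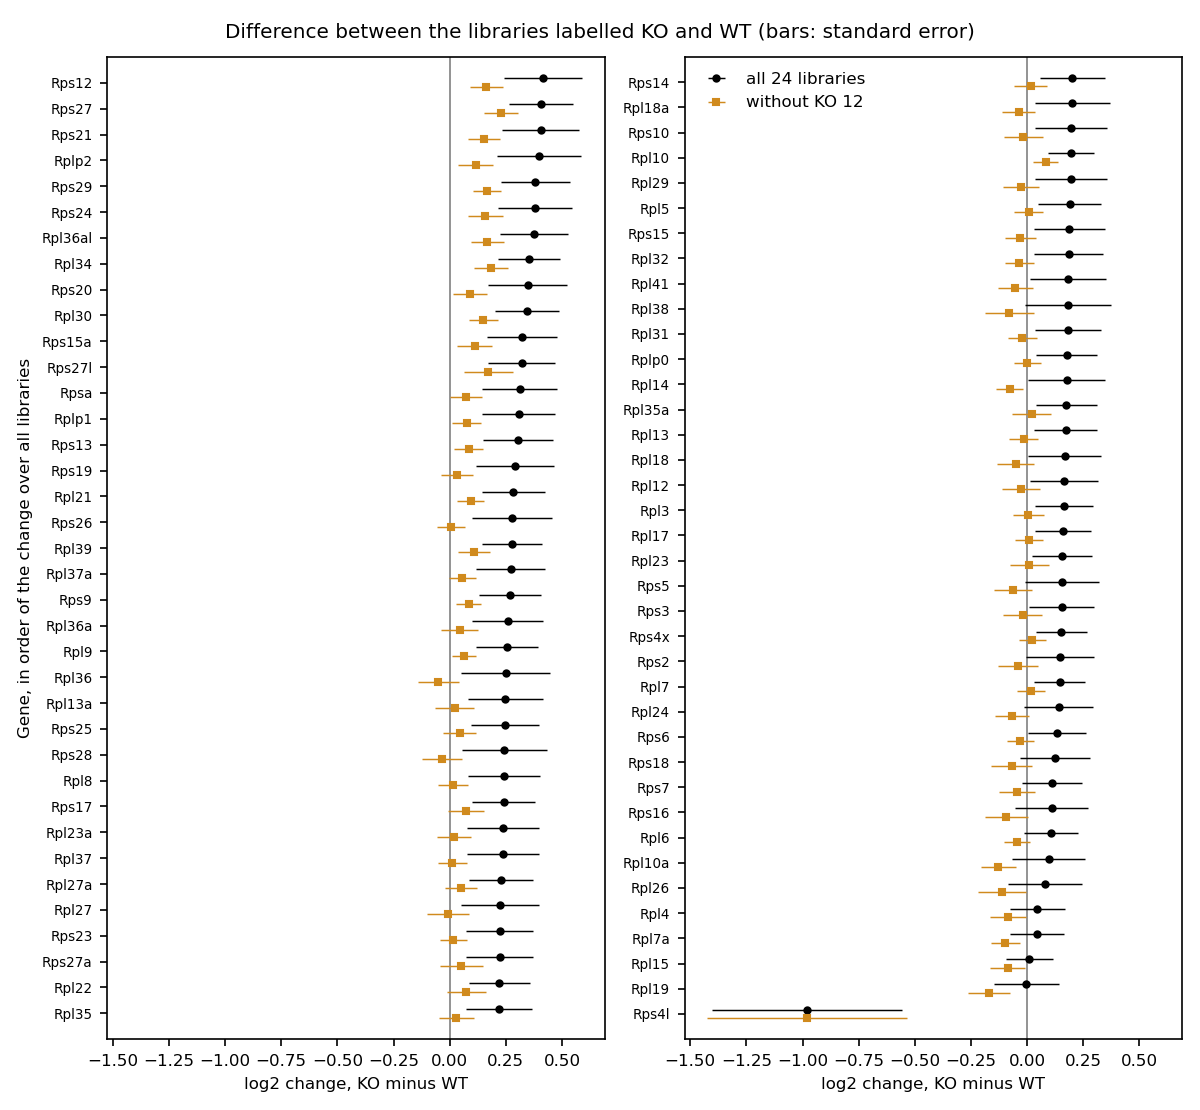
Log2 change between the libraries labelled KO and WT for 75 of the 76 genes, with its standard error, over all 24 libraries (black circles) and without KO 12 (orange squares). Over all libraries 73 of the genes drawn lie above 0, and without KO 12 there are 44, with Rps4l the lowest in both at -0.98.

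The gene with the smallest p was Rps27 (chromosome 3, 90119974 to 90120955, minus strand, GRCm39, gene ID 57294), which codes for a zinc-finger protein of the small subunit. It ranged from 402 CPM (KO 7) through a median of 554 to 1382 (KO 12) in the libraries labelled KO. In those labelled WT it ranged from 397 (WT 15) through 473 to 539 (WT 13). In 11 of 12 libraries labelled KO it lay above the WT median, and the ranges overlapped. The change was 0.40 ± 0.14 (log2, SE, adjusted p = 0.157 in edgeR) and 0.23 ± 0.08 without KO 12 (adjusted p = 0.148 in edgeR). Its adjusted p was 0.0931 in DESeq2 and 0.147 in limma voom.

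Rpl34 (chromosome 3, 130520476 to 130524047, minus strand, GRCm39, gene ID 68436), a large subunit gene on the same chromosome, came next. It had a lowest, median and highest level of 349, 434 and 1067 CPM in the libraries labelled KO and of 325, 370 and 489 in those labelled WT. The second highest library labelled KO was KO 10 at 555 CPM, so KO 12 and KO 10 alone, with KO 6 at 514, exceeded the highest WT library. The change was 0.35 ± 0.14 (adjusted p = 0.193 in edgeR), 0.18 ± 0.08 without KO 12 and 0.13 ± 0.07 without KO 9, KO 10 and KO 12.

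The other genes higher at an unadjusted p under 0.05 were Rps29, Rpl36al, Rpl30, Rps12, Rps21, Rps24, Rps27l and Rplp2. Rps12, a small subunit protein, had the largest change, 0.42 ± 0.17 (adjusted p = 0.211 in edgeR). It ran from 628 CPM through 962 to 2982 in the libraries labelled KO and from 697 through 823 to 914 in those labelled WT. Its lowest library of all was KO 9 and its highest KO 12, so the group labelled KO enclosed the group labelled WT. Without KO 12 its change was 0.16 ± 0.07. Rps21, another small subunit gene, had a change of 0.40 ± 0.17 over all libraries and of 0.15 ± 0.07 without KO 12. Rps24, whose loss in humans causes Diamond-Blackfan anaemia, had a change of 0.38 ± 0.16 and 0.16 ± 0.08. Rps29, Rpl30 and Rpl36al had a change of 0.38 ± 0.15, 0.34 ± 0.14 and 0.38 ± 0.15, and of 0.16, 0.15 and 0.17 without KO 12. Without KO 12 each of these genes had a positive difference, smaller than over all libraries.

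Rps4l was the single gene lower at an unadjusted p under 0.05. It is a retrotransposed copy of the Rps4 family on chromosome 6 (148256154 to 148257094, plus strand, GRCm39, gene ID 66184), annotated in RefSeq as a transcribed pseudogene. It was the least abundant member, with 2400 reads over all libraries. Its level ran from 0.70 CPM (KO 9) through 2.64 to 4.88 in the libraries labelled KO, and from 1.04 (WT 23) through 3.18 to 20.9 (WT 16) in those labelled WT. WT 16, WT 17, WT 19 and WT 18 lay above every library labelled KO, and the other 8 WT libraries lay within the KO range. The change was -0.98 ± 0.42 (adjusted p = 0.221 in edgeR, unadjusted p = 0.0295), and without WT 16 it was -0.50. Its within-group SD of 1.03 (log2) was the largest of the family. The other negative change was that of Rpl19, at -0.003 ± 0.15.

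The stalk of the large subunit is built from Rplp0, Rplp1 and Rplp2, which recruit and activate the GTPases of elongation. Rplp0 ran from 1215 CPM through 1536 to 3709 in the libraries labelled KO and from 1235 through 1465 to 1663 in those labelled WT. Rplp1 had 916, 1230 and 3547 CPM against 994, 1095 and 1235. Rplp2 had 431, 545 and 1948 CPM against 431, 474 and 626. In all 3 genes the lowest KO library was KO 9 and the highest KO 12. The changes were 0.18 ± 0.13, 0.31 ± 0.16 and 0.40 ± 0.19, and without KO 12 they were 0.002 ± 0.06, 0.08 ± 0.06 and 0.12 ± 0.08. None passed in edgeR, with adjusted p of 0.478, 0.300 and 0.251.

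Of the genes with a named role outside the ribosome, Rpl5, which binds Mdm2, had a change of 0.19 ± 0.14 over all libraries and of 0.007 ± 0.07 without KO 12. Rps6, the substrate of S6 kinase, had a change of 0.13 ± 0.13 and -0.03 ± 0.06. Rps3, which also takes part in DNA repair, had a change of 0.15 ± 0.14 and -0.02 ± 0.09. Rps19, another Diamond-Blackfan anaemia gene, had a change of 0.29 ± 0.17 and 0.03 ± 0.07, and Rps27a, which is made as a fusion with ubiquitin, one of 0.22 ± 0.15 and 0.05 ± 0.10. Rpsa, the laminin receptor protein of the small subunit, had a change of 0.31 ± 0.17 and 0.07 ± 0.07. In these 6 genes the change without KO 12 was smaller than or about equal to its SE.

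The 4 X-linked genes were Rps4x, Rpl10, Rpl36a and Rpl39. Rpl10, which completes the large subunit at the peptidyl transferase centre, had the smallest within-group SD of the family over all libraries, 0.23, and without KO 12 it had 0.11, with Rpl9 at 0.10. It ran from 730 CPM (KO 11) through 840 to 1638 (KO 12) in the libraries labelled KO and from 689 through 782 to 910 in those labelled WT. Its change was 0.20 ± 0.10 (adjusted p = 0.291 in edgeR) and 0.08 ± 0.05 without KO 12. Rps4x, Rpl36a and Rpl39 had a change of 0.15 ± 0.11, 0.26 ± 0.16 and 0.28 ± 0.14, and of 0.02, 0.04 and 0.11 without KO 12. None of the 76 genes lay within 10 Mb of Nr0b2.

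Levels between genes were compared as CPM per kb of exon, as means ± SD over the 23 libraries without KO 12. Rplp1 was the highest at 2427 ± 236, and Rps14, at 1750 ± 198, came next. Rpl12 (1623 ± 220), Rpl41 (1617 ± 201), Rps18 (1515 ± 240) and Rpl32 (1426 ± 132) followed, each within its SD of its neighbour in this order. At the low end stood Rps4l with 4.10 ± 4.51, Rps27l with 86.0 ± 16.2 and Rps15a with 95.3 ± 12.1. Above them came Rpl36al with 128 ± 16.9, Rps20 with 144 ± 17.3 and Rpl15 with 150 ± 19.1. Among these 5 genes above Rps4l, neighbours lay within their SD of each other, apart from Rps15a and Rpl36al. Rps15a, Rps20, Rps27l and Rpl15 have long annotated exons, between 1977 and 5136 bp, and a level per kb divides by all of them.

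Without KO 12, the family's median spread between tumours was below that of all tested genes, which include many genes with fewer reads. Over all libraries it was not. The median within-group SD was 0.35 (log2) over all libraries, beside 0.34 over all tested genes, and 0.17 without KO 12, beside 0.30. Measured against the family's median in each of the 23 libraries without KO 12, the SD over libraries had a median of 0.11 over the 76 genes. It was 1.07 for Rps4l, 0.30 for Rps27l, 0.21 for Rps27 and 0.20 for Rpl38 and Rpl34. The smallest was 0.05, for Rps23. These genes share each library's scaling, so this is a description of these libraries.

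Some of what remained followed the chromosome. In KO 9 and KO 10 the 779 other genes of chromosome 3 had a median level 0.46 and 0.42 above their own medians over all libraries. The 2 ribosomal protein genes of that chromosome stood high there against the family: Rps27 by 0.35 and 0.60, and Rpl34 by 0.56 and 0.57. KO 9 was the lowest library for most of the family but not for Rps27, Rpl34 and some genes of other chromosomes. Among the latter, Rpl10 and Rps27l stood 0.39 and 0.40 above the family in KO 9. In KO 6, where the other genes of chromosome 3 were 0.18 higher, Rps27 and Rpl34 stood 0.17 and 0.26 above the family. Between the groups, the median change of the other chromosome 3 genes was 0.14, with and without KO 12, and 0.04 without KO 9, KO 10 and KO 12. The median of Rps27 and Rpl34 was 0.38 over all libraries, 0.21 without KO 12 and 0.17 without KO 9, KO 10 and KO 12. Their change thus fell less than that of the other chromosome 3 genes when KO 9 and KO 10 were also left out.

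The same held for larger blocks. On chromosome 7, KO 2 had other genes 0.28 higher, and all 12 ribosomal protein genes there stood above the family, by 0.08 to 0.38. In WT 24 the other genes were 0.23 higher with 11 of the 12 above the family, and in WT 19 0.18 higher with 12 of 12. On chromosome 11, all 7 genes (Rps27a, Rpl26, Rpl23a, Rpl23, Rpl19, Rpl27 and Rpl38) stood 0.28 to 0.43 above the family in WT 19, where other genes were 0.32 higher. They were above it too in WT 23 and WT 13, where other genes were 0.22 and 0.21 higher. On chromosome 17, all 6 genes (Rps2, Rps10, Rpl10a, Rps28, Rps18 and Rpl36) stood 0.28 to 0.56 above it in WT 22, with other genes 0.33 higher. Rpl35a and Rpl24 on chromosome 16 stood 0.33 above it in WT 22, where other genes were 0.34 higher, and 0.36 and 0.28 above it in WT 13, where they were 0.25 higher. Over the 17 chromosomes with at least 2 such genes, chromosome 6 with Rps4l left out, all 12 cases in which other genes were more than 0.15 higher had ribosomal protein genes with a median above the family. In the rest of the 391 pairs of chromosome and library without KO 12, that median ran from -0.26 to 0.23, which overlaps the 12 cases. The share of all pairs with a median above the family was not counted. The cause of the chromosome shifts was not tested.

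**Figure D5:**
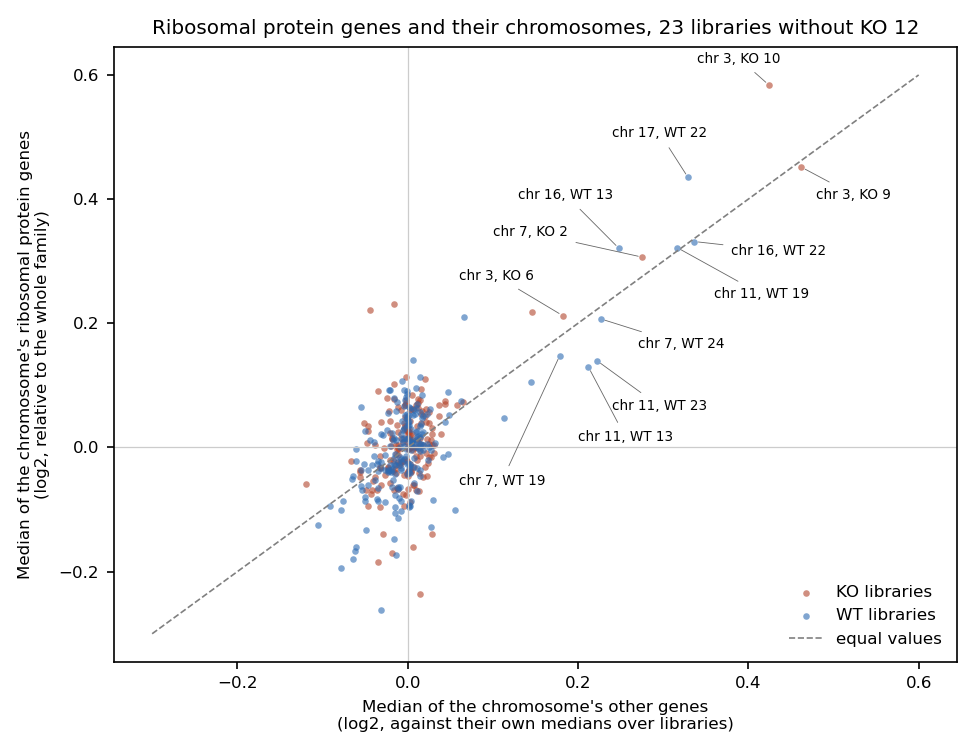
Median of a chromosome's ribosomal protein genes relative to the whole family (vertical axis, log2) against the median of its other genes relative to their own medians over libraries (horizontal axis, log2), with 1 point for each of 17 chromosomes in each of 23 libraries. The 12 labelled points, where other genes are more than 0.15 higher, all lie above 0 on the vertical axis, from 0.13 to 0.58. The other points run from -0.26 to 0.23 on that axis.

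In KO 12 the other genes of chromosome X were 0.33 lower, those of chromosome 18 0.25 lower and those of chromosome 3 0.18 lower than their own medians. Against the family, the 4 X-linked genes had a median of -0.25 there with 1 of 4 above 0, Rps14 and Rpl17 on chromosome 18 stood at -0.13 and -0.29, and Rps27 and Rpl34 at 0.01 and -0.07.

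Rpl22, an RNA-binding protein of the large subunit that is lost in some cancers, was low in a single tumour. It ran from 430 CPM through 571 to 1222 in the libraries labelled KO and from 319 (WT 21) through 517 to 617 in those labelled WT. In WT 21 it stood 0.62 below the family, while Rps6 and Rps20, also on chromosome 4, stood at -0.08 and -0.16. Its paralogue Rpl22l1, which lies outside the symbol rule, had 169 CPM in WT 21, the second highest WT library after WT 23 at 172, and a WT median of 101. The change of Rpl22 between the groups was 0.22 ± 0.13 (adjusted p = 0.366 in edgeR) and 0.07 ± 0.09 without KO 12.

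Rps27l, a paralogue of Rps27 that is a p53 target, varied more between tumours than Rps27 did. It ran from 197 CPM (KO 4) through 253 to 570 (KO 12) in the libraries labelled KO and from 144 (WT 20) through 224 to 279 (WT 14) in those labelled WT. WT 13, WT 17, WT 18 and WT 20 were its low libraries, between 144 and 179 CPM. The change was 0.32 ± 0.15 (adjusted p = 0.248 in edgeR) and 0.17 ± 0.11 without KO 12.

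Genes around the family were counted from lists by function. In edgeR, 0 genes of these 8 lists passed the adjusted threshold. Their counts at an unadjusted p under 0.05 stand beside 10.01% of all tested genes higher and 8.90% lower. Of 8 ribosomal or ribosome-bound proteins outside the symbol rule, 1 was higher (12.5%) and 0 lower, with a median change of 0.22 that was 0.02 without KO 12. That gene was Rps3a1 on chromosome 3, at 0.36 ± 0.12 and 0.22 without KO 12. Of 19 elongation factor and other mRNAs with a pyrimidine start, 2 were higher (10.5%) and 0 lower, with a median of 0.07 that was -0.04 without KO 12. The highest of them was Gas5, a host gene of small nucleolar RNAs, at 0.37 ± 0.14, and Eef2, the translocation factor, had -0.12 ± 0.08.

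Of 32 ribosome biogenesis factors, 2 were higher (6.25%) and 1 lower (3.12%), both below the shares of all genes (10.01% and 8.90%), with a median of 0.12 that was -0.005 without KO 12. The lower gene was Mybbp1a, a nucleolar Myb-binding protein, at -0.30 ± 0.13. Of 12 tested genes of RNA polymerase I and its factors, 1 was higher (8.33%) and 2 lower (16.7%), with a median of 0.02 that was -0.10 without KO 12. Of 22 tested Myc and Tor pathway genes, 4 were higher (18.2%) and 2 lower (9.09%, near the share of all genes), with a median of -0.01 that was -0.02 without KO 12. The 2 lower genes were Tsc2, which restrains Tor, at -0.18 ± 0.06 and Rptor, the scaffold of Tor complex 1, at -0.25 ± 0.09. Among the 4 higher genes, Rheb and Eif4ebp1 had the smallest p, at 0.14 ± 0.05 and 0.55 ± 0.22. Without KO 12 these 2 had 0.11 and 0.20. Of 21 initiation factors, 2 were higher (9.52%) and 0 lower, with a median of 0.11 that was 0.04 without KO 12. Of 12 p53 targets of the ribosome stress response, 1 was higher (8.33%) and 0 lower, with a median of -0.11 that was -0.14 without KO 12. Without KO 12 the median was lower in each of these 7 lists.

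Proteins of the mitochondrial ribosome, which translates the mitochondrial genome, formed the longest list, with 78 genes. At an unadjusted p under 0.05, 22 were higher (28.2%, against 10.01% of all genes) and 0 lower (against 8.90%), with a median change of 0.20. Without KO 12, 21 were higher (26.9%, against 8.66%) and 1 lower (1.28%, against 9.14%), with a median of 0.06. The smallest p were those of Mrpl9, Mrpl47 and Mrps21 on chromosome 3 and of Mrpl33 on chromosome 5. They had a change of 0.45 ± 0.11, 0.42 ± 0.11, 0.48 ± 0.14 and 0.49 ± 0.14, with adjusted p of 0.0740, 0.0948, 0.105 and 0.107 in edgeR. DESeq2, which called 2.64% of all tested genes, called these 4, with adjusted p of 0.0137, 0.0274, 0.0396 and 0.0418. Limma voom, which called 0.436%, called Mrpl33 (adjusted p = 0.0257). Without KO 12, Mrpl33 passed in edgeR, at 0.30 ± 0.06 (adjusted p = 0.0270), as did 0.433% of all tested genes. In KO 12 the median of the 78 was 1.14 above the other libraries, beside 1.48 for the cytosolic family. KO 12 was the highest library for 75 of the 78, against 25.4% of tested genes. With the length trend removed the median change of the list was 0.058.

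The way reads were counted touched some members. Reads were assigned without strand, so reads of overlapping genes cannot be told apart. Of the 76 genes, 59 shared no exon base with another gene and 5 shared over 20%: Rpl5 (47.6%, with Dipk1a), Rpsa (34.2%), Rpl31 (33.3%), Rps25 (30.1%) and Rpl19 (25.2%, with Cacnb1). Rpl28 is absent from the deposited table and so from the 76. It held 186 reads over all libraries, and 89.3% of its exon bases lie under an annotated gene that overlaps it on the opposite strand. Reads near copies are uncertain as well: 226 pseudogene entries named after genes of the family held 55520 reads, 0.179% of the reads in the 76 genes. Of the 76, 56 had at least 1 such entry. Reads placed at several positions were not counted, so this share does not measure how many reads the copies took from the family. The tissue-restricted copies Rpl3l and Rpl10l, of muscle and testis, lie outside the table too. Rpl10l had 0 reads in all 24 libraries, and Rpl3l reached 21.4 CPM in KO 11, the library with the highest skeletal muscle markers (5970 CPM summed), and at most 4.70 CPM in the others.

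The authors' deposited table rests on the same libraries, so it is not separate evidence. In it, 41 of 14019 genes had an FDR under 0.05, and 0 of the 76 did. The edgeR fit here with at least 1 CPM in at least 12 libraries likewise tested 14019 genes and called 41, with a median change of 0.20 over the 76. The log2 fold change in the authors' deposited table was above 0 for 74 of the 76, with a median of 0.20 and a smallest FDR of 0.159.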

How the data were processed

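Each library has a table of raw counts that the authors made with featureCounts 2.0.0 on exons of a GRCm39 annotation, with no strand option and no option to count reads placed at several positions, per the file headers, although the kit kept strand per the labels' protocols. STAR and Subread stand in the submitters' processing notes, with versions not given in the sources used here. The authors' deposited comparison table adds log2 fold changes and log2 CPM per gene. It also holds p-values with FDR from the authors' own fit, whose tool is not given in the sources used here. Its F value and signed fold are a score per gene from the authors, not used here.

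Genes passing filterByExpr were tested in edgeR 4.0.16 (R 4.3.3) after TMM scaling, 12 libraries against 12 as the labels group them, with a two-sided quasi-likelihood F test, no covariate and Benjamini-Hochberg adjustment over all tested genes (threshold 0.05). No batch is labelled. The SE is the size of the log2 change divided by the square root of F. CPM use TMM library sizes, and log2 CPM a prior count of 2. A level against the family is log2 CPM minus the gene's own median, less the median of that over the 76 genes in the library. The trend with length was a spline with 5 degrees of freedom, fitted in each library on genes outside the family and used as an offset. Alternatives were other scalings and filters, DESeq2 1.42.0, voom of limma 3.58.1 with sample weights, marker covariates, and libraries left out. The fits were tested on simulated data that held no library as far apart as KO 12 and no shifts of whole chromosomes. Those simulations therefore do not cover these features.

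Named genes were the 8 with the smallest p in each direction, the 6 highest and 6 lowest per kb, the 4 largest and 4 smallest spreads, stalk, X-linked and paralogous genes, genes with roles outside the ribosome, and up to 4 of each related list. Genes listed by chromosome, overlap or promoter were named after their values were seen. Members and lists were chosen with earlier results of these data known. Promoters are from RefSeq on GRCm38.p6 and gene positions from the count files on GRCm39. Some genes of the family are not reported here.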

Additional observations from a re-analysis of the deposited data

How the results depend on the processing

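No gene of the family passed an adjusted p of 0.05 in any of 39 fits over all genes (edgeR, DESeq2 or limma voom). The smallest adjusted p was 0.0826, in edgeR with muscle and adipocyte marker scores as covariates. At an unadjusted p under 0.05 the main edgeR fit had 10 genes higher (10.01% of all tested genes) and 1 lower (8.90%). When single libraries were left out the number past the threshold was 0 each time, and the median change ran from 0.013 (without KO 12) to 0.25 (without KO 9). It was 0.14 with library totals alone, 0.091 in limma voom, -0.010 with the length trend removed and -0.093 with that trend removed and KO 12 left out. The difference in the share of reads between group medians, 0.23 percentage points, ran from 0.18 to 0.28 without single libraries. The spread within groups was 0.24 with the length trend removed, 0.18 without KO 11 and KO 12 and 0.17 without KO 12, against 0.35. In the related lists DESeq2 called 4 genes and limma voom 1, against 0 in edgeR. Of all tested genes they called 2.64%, 0.436% and 0.316%.

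Of 1444 values of named genes under alternatives, 89 had the opposite sign. All belong to genes that were not called, and the cause was not tested. With the length trend removed the changes were Rpl12 -0.086, Rpl15 -0.10, Rpl32 -0.070, Rpl36 -0.018, Rpl36a -0.0029, Rpl38 -0.094, Rpl41 -0.084, Rpl7 -0.058, Rplp0 -0.0046, Rps14 -0.044, Rps18 -0.12, Rps27a -0.0050, Rps28 -0.028, Rps4x -0.014 and Rps6 -0.042. Without KO 11 and KO 12 they were Rpl12 -0.024, Rpl15 -0.078, Rpl32 -0.019, Rpl36 -0.031, Rpl38 -0.087, Rpl41 -0.051, Rpl5 -0.00027, Rps18 -0.062, Rps28 -0.034, Rps3 -0.0097 and Rps6 -0.023. After the data were seen, 3 more settings were added. Length trend and KO 12 both removed gave Rpl10 -0.021, Rpl12 -0.15, Rpl15 -0.15, Rpl3 -0.080, Rpl32 -0.15, Rpl36 -0.16, Rpl36a -0.078, Rpl38 -0.21, Rpl39 -0.0063, Rpl41 -0.17, Rpl5 -0.055, Rpl7 -0.10, Rplp0 -0.092, Rplp1 -0.040, Rplp2 -0.0010, Rps14 -0.10, Rps18 -0.18, Rps19 -0.075, Rps27a -0.065, Rps28 -0.14, Rps3 -0.088, Rps4x -0.069 and Rps6 -0.12. Without KO 9, KO 10 and KO 12 the values were Rpl15 -0.048, Rpl38 -0.027, Rpl41 -0.0058 and Rps18 -0.012, and without KO 9 and KO 10 Rpl19 had 0.058. Rpl15 had -0.0063 with upper-quartile scaling, -0.051 with library totals alone and -0.00070 with no filter. Rps28 had -0.00076 in limma voom, and Rpl19 had 0.025 with the covariates. Without single libraries, the lowest value always without KO 12, the ranges were Rpl12 from -0.029 to 0.21, Rpl15 from -0.087 to 0.048, Rpl19 from -0.17 to 0.039, Rpl32 from -0.034 to 0.22, Rpl36 from -0.051 to 0.31, Rpl38 from -0.080 to 0.25, Rpl41 from -0.052 to 0.22, Rps18 from -0.069 to 0.19, Rps28 from -0.035 to 0.30, Rps3 from -0.020 to 0.19 and Rps6 from -0.030 to 0.17.

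No paired analysis was possible because the labels number the KO libraries 1 to 12 and the WT libraries 13 to 24, so no number is shared. Depth limits Rps4l alone among the 76 genes, with 15 reads in its lowest library.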
